A study of Mus musculus with 6 samples.

Results

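The respiratory chain is described here through 105 of the 34745 genes in the deposited table. The genes were taken by name: the Nduf genes of complex I, the 4 Sdh subunits of complex II, the Uqcr genes of complex III, the Cox4 to Cox8 genes of complex IV, the Atp5 genes of ATP synthase (complex V) and the protein-coding genes of mitochondrial DNA. Of 109 names that matched, 4 ending in the pseudogene suffix -ps were left out. The 105 genes comprised 83 subunits encoded in the nucleus, 13 subunits encoded in mitochondrial DNA, the 7 assembly factors Ndufaf1 to Ndufaf7, and Atp5s and Atp5sl, which match by name but are not ATP synthase subunits. By complex, the nuclear subunits numbered 38, 4, 8, 18 and 15 for complexes I to V, and the mitochondrial subunits 7 for complex I, 1 for III, 3 for IV and 2 for V. Complexes were assigned from the gene symbol, so Ndufa4, now known as a complex IV subunit, was counted under complex I.

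The RNA came from the colons of male mice of matched age, either TRPC-hepta knockout mice (3 libraries), lacking every TRPC cation channel according to the title of the series, or TRPC-hepta control mice (3 libraries). All of them, controls included, had received DSS (dextran sulfate sodium, which damages the lining of the colon and provokes colitis) for 6 days before sacrifice. The strain, the exact alleles and whether each library is a separate animal are not stated by the labels. The p-values therefore reflect only the spread among these libraries, which may be technical. No mice without DSS were analysed here.

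The respiratory chain is the set of protein complexes in the inner mitochondrial membrane that passes electrons from NADH (through complex I) and succinate (through complex II) by way of coenzyme Q, complex III, cytochrome c and complex IV to oxygen. Complexes I, III and IV pump protons as they do so, and ATP synthase uses the proton gradient to make ATP. Most subunits are encoded in the nucleus and imported, while a small set of hydrophobic core subunits is encoded in mitochondrial DNA, so the chain depends on matched output from both genomes. In the colon, absorptive epithelial cells are rich in mitochondria and draw much of their energy from oxidation of butyrate.

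The knockout libraries held 13816295 to 15505327 counted reads and the control libraries 16819662 to 17584992. Levels are given as CPM, counts scaled to a common library total after TMM, unless stated otherwise. The knockout libraries differed more among themselves than the controls did, and replicate 3 lay between replicates 1 and 2 in CPM for 72.1% of the 15819 genes that passed the filter on low counts. Across genes, replicate 3 correlated at 0.961 and 0.962 with replicates 1 and 2, which correlated with each other at 0.890. Since the design text of the series speaks of duplicates, replicate 3 may not be independent of the other knockout libraries, and the SDs and p-values with n = 3 would then understate the error. The number of genes past the threshold was 278 with all libraries and 15 without knockout replicate 3. It also fell far when any control library was left out, so the drop was not particular to that replicate. Of the TRPC genes, Trpc1, Trpc4 and Trpc6 were tested here; 0 of these 3 passed the threshold of 0.05 in the quasi-likelihood test of edgeR, adjusted after Benjamini and Hochberg (adjusted p = 0.735 to 0.958). None was called by DESeq2 (0 of 3) or had an unadjusted p under 0.05 (0 of 3). Which stretches of these genes were deleted is unknown here, and whole-gene counts do not check the genotype labels.

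Of the 105 genes, 100 passed the filter on low counts and were tested. Only Ndufs5, an accessory subunit of complex I, was past the threshold, and it was higher in the knockout (1 of 100 genes, where 1.76% of all genes tested were past it, 1.09% higher and 0.67% lower). That count did not exceed the share over all genes. At an unadjusted p under 0.05 there were 6 respiratory chain genes (Ndufs5, Ndufaf2, mt-Nd6, Cox6b2, Ndufa4l2 and mt-Nd3), against 16% of all genes tested. The 3 knockout and 3 control values did not overlap for 12 of the 100 genes, 5 higher and 7 lower in the knockout, against 21.6% of all genes tested (11.2% higher and 10.4% lower). The log2 fold change of knockout over control was negative for 68 of the 100 genes and positive for 32, while 48.4% of all genes tested had a negative value. Its median over the 100 genes was -0.11, against 0.01 over all genes tested. DESeq2 called 4 of the genes, Ndufs5, Ndufaf2, mt-Nd3 and mt-Nd6, against 9.19% of all genes. Without knockout replicate 2, edgeR called Ndufs5, Ndufaf2, mt-Nd6 and Ndufa4l2, against 11.2% of all genes. Without knockout replicate 3 it called 0, with 4 at an unadjusted p under 0.05, against 0.093% of all genes called.

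The 5 genes that were not tested all belong to complex IV and are forms known from other tissues. Cox7b2 and Cox8c had 0 reads in all 6 libraries, and the highest value of Cox4i2, Cox6a2 and Cox8b was 1.38 CPM, for Cox8b in knockout replicate 1.

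**Figure D1:**
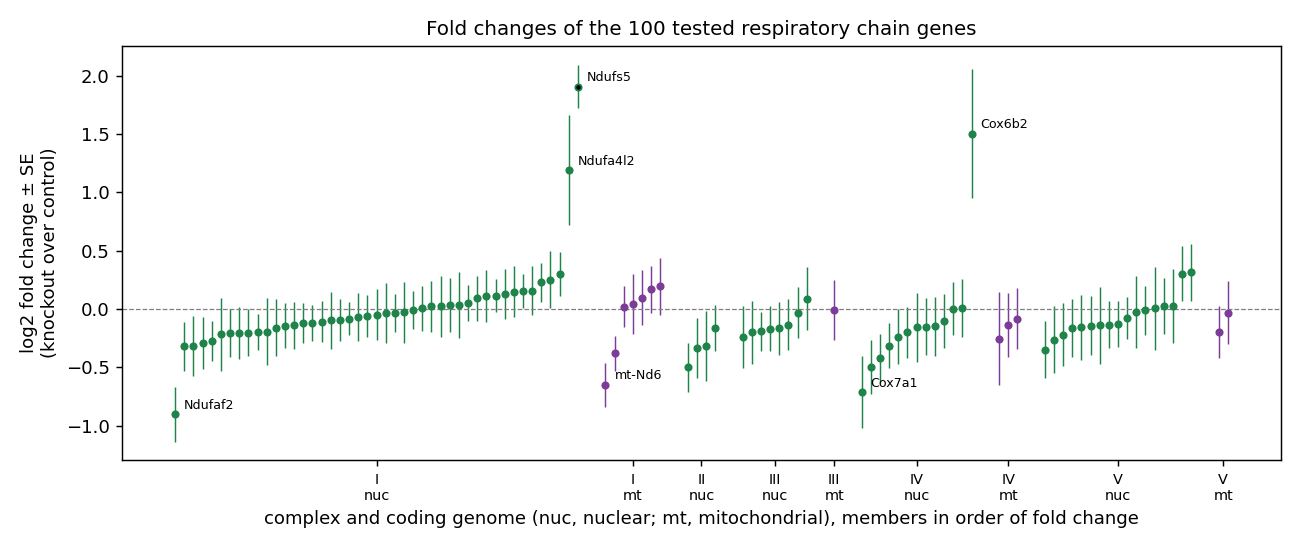
Log2 fold change of knockout over control with its standard error (vertical axis) for the 100 tested genes, arranged by complex and by coding genome on the horizontal axis. Ndufs5 (1.91), marked in black, is the gene past the threshold; most others lie a little under 0, with Cox6b2 and Ndufa4l2 high and Ndufaf2, Cox7a1 and mt-Nd6 low.

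Ndufs5 (chr4:123712710-123718202, minus strand, GRCm38) had 26.8, 36.8 and 29.9 CPM in the knockout libraries (replicates 1, 2 and 3), against 9.26, 7.69 and 7.95 CPM in the control libraries. Every knockout library stood well above every control library. The means were 31.2 ± 5.13 CPM in the knockout and 8.30 ± 0.84 CPM in the control (SD, n = 3 each). The log2 fold change was 1.91 ± 0.19 (SE), with an adjusted p of 0.0112 by edgeR's quasi-likelihood test. The call was lost without knockout replicate 3 (adjusted p = 0.0853) and without control replicate 1, 2 or 3 (adjusted p = 0.0681, 0.0829 and 0.0796), while the log2 fold change stayed at 1.77 or more in each fit that left out a library.

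The table also held a nearly identical gene, BC002163 (chr16:42955631-42955949, plus strand, GRCm38), a processed pseudogene, that is, a copy of a spliced transcript set back into the genome. Its 319 bases aligned over their whole length to the Ndufs5 transcript of 525 bases with 2 differences, an identity of 99.4%, and shared a run of 214 bases with it without any difference. Counted from the first base of the shared stretch, which begins at a start codon, the differences were T81C and A105G, Ndufs5 given first. The alignment covered bases 93 to 411 of the Ndufs5 transcript, and the bases outside it also set that transcript apart from BC002163. Bases 51 to 135 of the shared stretch, which hold both differences, are shown from the GENCODE M21 transcripts with the differing bases in capitals.
Ndufs5: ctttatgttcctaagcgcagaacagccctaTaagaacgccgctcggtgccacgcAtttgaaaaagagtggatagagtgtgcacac
BC002163: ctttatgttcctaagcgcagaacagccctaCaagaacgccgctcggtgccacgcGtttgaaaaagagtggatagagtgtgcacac

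BC002163 moved the other way. It had 9.89, 17.6 and 13.5 CPM in the knockout libraries, against 50.9, 44.7 and 51.6 CPM in the control libraries, and all knockout values were lower than all control values. The means were 13.6 ± 3.84 CPM in the knockout and 49.0 ± 3.81 CPM in the control (SD, n = 3 each). BC002163 had a log2 fold change of -1.85 ± 0.23 (SE), with an adjusted p of 0.0229 by edgeR's quasi-likelihood test. That call too was lost without knockout replicate 3 (adjusted p = 0.139) and without control replicate 1, 2 or 3 (adjusted p = 0.125, 0.101 and 0.105).

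Of the reads given to the pair, Ndufs5 took 73.0%, 67.7% and 69.0% in the knockout libraries, against 15.4%, 14.7% and 13.4% in the control libraries. When the counts of both genes were summed and the whole table refitted, the pair stood at 36.7, 54.4 and 43.4 CPM in the knockout libraries, against 60.1, 52.3 and 59.6 CPM in the control libraries. The groups then overlapped, since knockout replicate 2 lay above control replicate 2. The means of the sum were 44.8 ± 8.93 CPM in the knockout and 57.3 ± 4.34 CPM in the control (SD, n = 3 each). Its log2 fold change was -0.36 ± 0.18 (SE), not past the threshold (edgeR, adjusted p = 0.391), and opposite in sign to that of Ndufs5 alone. In this fit edgeR called 0 of the respiratory chain genes, with 4 at an unadjusted p under 0.05, against 1.67% of all genes called. The labels do not say how reads matching more than 1 gene were counted, and the level of Ndufs5 by itself is uncertain.

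**Figure D2:**
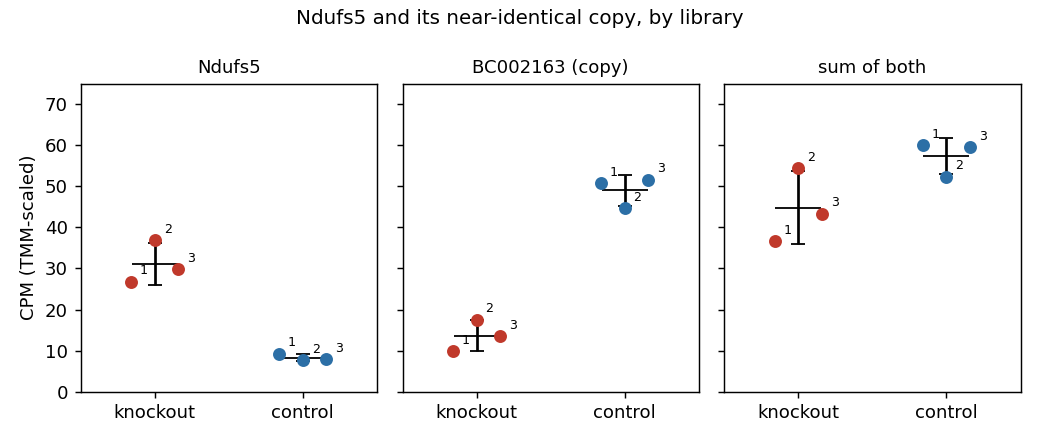
CPM (vertical axis) of Ndufs5, its copy BC002163 and their sum in the knockout and control libraries, with points numbered by replicate and bars for the mean and SD (n = 3 each). Ndufs5 is higher in every knockout library and BC002163 lower in every one, while the sum overlaps between the groups, at 36.7 to 54.4 CPM in the knockout and 52.3 to 60.1 CPM in the control.

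The same search was run for every respiratory chain gene, taking as a copy any other transcript that matched at 95% identity or more over at least 100 bases and 80% of its length. It found 57 copies for 32 genes, of which 21 copies, of 16 genes, were in the table. The share of the pooled reads that a gene kept differed between the mean of the knockout and that of the control by 55.4 percentage points for Ndufs5. For the other 15 genes that difference ran from -9.78 points for Cox7c to 6.80 points for Atp5l. Atp5h, a stalk subunit of ATP synthase, kept 43.9%, 44.5% and 46.1% of the reads it pooled with Gm10250 in the knockout libraries, against 43.0%, 42.4% and 43.3% in the control libraries. Cox5b, a nuclear subunit of complex IV, kept 64.4%, 65.5% and 67.1% in the knockout libraries, against 68.6%, 67.9% and 67.5% in the control libraries, the rest going to Gm11273. So a large part of these genes' reads was assigned to a copy in every library, but the split was much alike in both genotypes. Cox7c, Atp5l, Atp5g2 and Ndufb4 had under 10 CPM in every library and also have near-identical copies, so their levels are uncertain too.

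The levels of the nuclear subunits differed between the knockout libraries, low in replicate 1 and high in replicate 2. Over the 78 tested, the median log2 ratio of CPM to the control mean was -0.50, 0.23 and -0.11 in knockout replicates 1, 2 and 3, against 0.08, -0.07 and -0.01 in control replicates 1, 2 and 3. Knockout replicate 1 lay under all control libraries for 67 of the 78 genes (37.3% of all genes tested), whereas knockout replicate 2 lay over all control libraries for 60 of the 78 (32.8% of all genes tested). Knockout replicate 1 was the lowest of the knockout libraries for 76 of the 78 genes (6734 of all 15819 genes tested). Replicate 3 lay between the others for 74 of the 78 (72.1% of all genes tested) and under all control libraries for 37 (30.9% of all genes tested). The median log2 fold change over the nuclear subunits was -0.11, with 54 negative and 24 positive values, and it turned to 0.07 without knockout replicate 1, against -0.28 without replicate 2 and -0.12 without replicate 3. On the scale of the authors' FPKM (fragments scaled to gene length and library total) the medians of the nuclear subunits were -0.32, 0.18 and -0.02 in knockout replicates 1, 2 and 3, where the medians over all genes tested were 0.17, -0.05 and 0.08. Relative to all genes, the order of the knockout libraries was therefore the same on both scales.

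**Figure D3:**
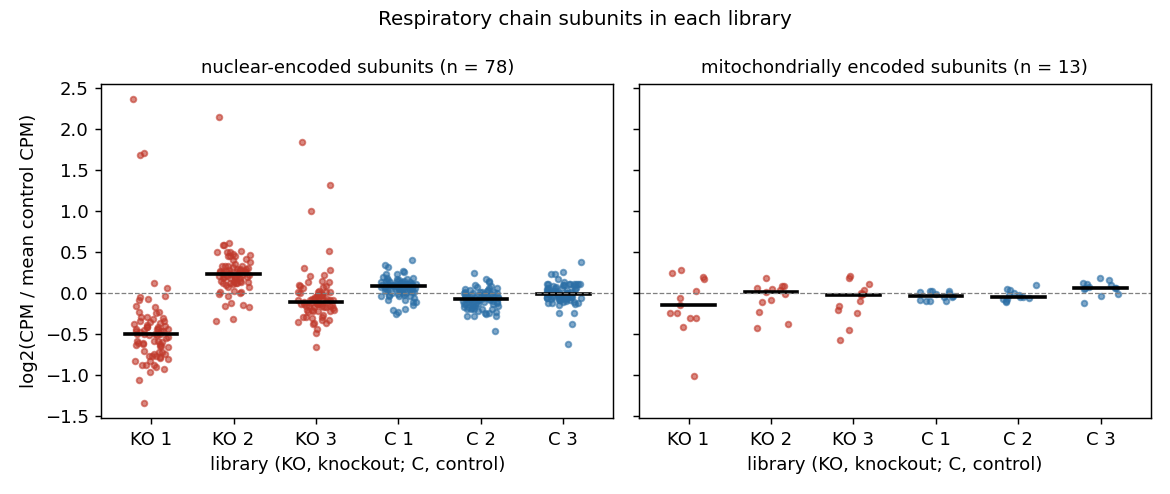
Log2 ratio of CPM to the mean control CPM (vertical axis) for each of 78 nuclear (left) and 13 mitochondrial (right) subunit genes in each knockout (KO) and control (C) library, with a black line at the median. The nuclear medians are -0.50, 0.23 and -0.11 in the knockout libraries and lie within 0.08 of 0 in the controls, while the mitochondrial medians run from -0.15 to 0.06 over all 6 libraries.

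Markers of epithelial cells moved with the nuclear subunits over the knockout libraries. The 7 epithelial markers (Epcam, Cdh1, Vil1, Krt8, Krt18, Krt19 and Cldn7) summed to 5927, 12895 and 9262 CPM in knockout replicates 1, 2 and 3, against 11023 to 12740 CPM in the control libraries, and none of them was at 0 in any library. Replicate 1 was low, replicate 2 at the upper edge of the controls and replicate 3 between, as for the subunits. Of the 7 markers, 0 were past the threshold by edgeR or DESeq2, 1 had an unadjusted p under 0.05, and all 7 had negative log2 fold changes (median -0.40). Median log2 ratios to the control mean were -0.99, 0.80 and 0.39 in knockout replicates 1, 2 and 3 for 6 goblet cell markers. The control libraries ran from -0.47 to 0.39. The medians of the 7 T and B cell markers had the same order (-0.56, 1.37 and 0.42, controls -0.77 to 0.25). Replicate 1 was the lowest knockout library for 5 of these 7. Replicate 3 lay between the others for 4 of them (72.1% of all genes tested). The medians of the 10 absorptive colonocyte markers had it too (-1.19, -0.17 and -0.56, controls -0.41 to 0.24), with replicate 2 under the control mean. Replicate 1 was the lowest knockout library for 6 of these 10. Aqp8, Car4 and Slc26a3 ran the opposite way, highest in replicate 1 and lowest in replicate 2. Goblet cells and absorptive colonocytes are epithelial cells as well, so of these lists only that of T and B cells lay outside the epithelium. The 5 fibroblast markers ran the opposite way, summing to 2198, 522 and 1303 CPM in knockout replicates 1, 2 and 3, against 500.1 to 612 CPM in the control libraries, again with none at 0. The 6 neutrophil markers had the same reversed order, summing to 261, 40.1 and 144 CPM in knockout replicates 1, 2 and 3, against 2.65 to 5.16 CPM in the control libraries, and 3 of the 6 were past the threshold, all higher in the knockout (6 by DESeq2). Of these, Cxcr2 and Retnlg had 0 reads in all control libraries and S100a9 had 0 in control replicate 1. The 3 endothelial markers summed to 159, 43.6 and 95.4 CPM in knockout replicates 1, 2 and 3, against 40.6 to 50.3 CPM in the control libraries. The part of these cell types in the subunit levels was not tested, and in whole tissue fewer cells of a type and less RNA per cell cannot be told apart.

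Complex I takes electrons from NADH. Its 38 nuclear subunits had a median log2 fold change of -0.04 (16 positive, 22 negative), and beside Ndufs5 no other was past the threshold. Ndufs1, the large iron-sulphur subunit of the electron path, had 92.1, 162 and 112 CPM in the knockout libraries, against 151, 142 and 129 CPM in the control libraries, with a log2 fold change of -0.21 ± 0.22 (SE). Ndufv1, which binds NADH, had 53.6, 80.5 and 65.0 CPM in the knockout libraries, against 81.9, 83.6 and 75.2 CPM in the control libraries, with a log2 fold change of -0.27 ± 0.17 (SE). In both genes knockout replicate 1 was lowest of all 6 libraries and replicate 2 fell within or above the control range. The lowest nuclear subunit of the complex was Ndufa5, an accessory subunit, at a log2 fold change of -0.32 ± 0.21 (SE), from 32.9, 56.1 and 46.9 CPM in the knockout libraries, against 58.9, 54.3 and 56.5 CPM in the control libraries. By edgeR's quasi-likelihood test the adjusted p was 0.721, 0.509 and 0.515 for Ndufs1, Ndufv1 and Ndufa5.

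Ndufaf2, an assembly factor that acts late in the building of complex I and is not part of the finished enzyme, had 5.96, 8.60 and 6.42 CPM in the knockout libraries, against 12.7, 11.2 and 15.3 CPM in the control libraries. All knockout libraries lay under all control libraries. Its log2 fold change was -0.90 ± 0.24 (SE), the lowest of the 100 genes, and did not pass the threshold (edgeR's quasi-likelihood test, adjusted p = 0.128); it did so by DESeq2 (adjusted p = 0.0084) and without knockout replicate 2 (adjusted p = 0.0331). The other 6 Ndufaf genes had log2 fold changes from -0.32 (Ndufaf4) to 0.15 (Ndufaf7), and the median of the 7 was -0.19. Ndufaf7, a methyltransferase that modifies a core subunit, had 17.2, 17.3 and 17.4 CPM in the knockout libraries, against 16.1, 14.4 and 16.3 CPM in the control libraries, so that the groups did not overlap although the log2 fold change was only 0.15 ± 0.15 (SE).

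Complex II, succinate dehydrogenase, is the complex that is wholly encoded in the nucleus and is also an enzyme of the tricarboxylic acid cycle. All 4 subunits had negative log2 fold changes, with a median of -0.32, and 0 were past the threshold by edgeR or DESeq2 or had an unadjusted p under 0.05. Sdha, the flavin-carrying catalytic subunit, had 235, 395 and 318 CPM in the knockout libraries, against 458, 437 and 446 CPM in the control libraries. Its groups did not overlap, and the knockout spread (SD 80.3 CPM) was wider than that of the control (SD 10.6 CPM). The log2 fold change of Sdha was -0.50 ± 0.21 (SE; edgeR, adjusted p = 0.315). Sdhb, the iron-sulphur subunit, had 71.0, 169.8 and 119 CPM in the knockout libraries, against 146, 145 and 156 CPM in the control libraries, so that replicate 2 stood above the controls. The membrane anchors Sdhc and Sdhd had log2 fold changes of -0.16 ± 0.20 and -0.33 ± 0.26 (SE). The median of the complex was -0.92, 0.12 and -0.34 in knockout replicates 1, 2 and 3 as log2 ratio to the control mean, the widest span between replicates 1 and 2 among the nuclear parts of the 5 complexes.

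Complex III passes electrons from coenzyme Q to cytochrome c. Its 8 nuclear subunits had a median log2 fold change of -0.17, 7 of them negative, and 0 were past the threshold by edgeR or DESeq2 or had an unadjusted p under 0.05. Uqcrfs1, the Rieske iron-sulphur protein, was the lowest at -0.24 ± 0.26 (SE), with 113, 237 and 179 CPM in the knockout libraries, against 217, 207 and 201 CPM in the control libraries. Uqcrc1, a core subunit, had 156, 277 and 216 CPM in the knockout libraries, against 233, 243 and 236 CPM in the control libraries. In both genes replicate 1 was far under the controls and replicate 2 above them. The highest was Uqcr11, a small accessory subunit, at 0.09 ± 0.27 (SE), with 36.9, 75.1 and 47.6 CPM in the knockout libraries, against 43.8, 53.0 and 53.1 CPM in the control libraries.

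Complex IV, cytochrome c oxidase, hands electrons to oxygen, and its nuclear subunits include forms that are used in particular tissues. Of the 13 tested, 10 had negative log2 fold changes, the median was -0.16, and 0 were past the threshold by edgeR or DESeq2, while Cox6b2 had an unadjusted p under 0.05. Cox4i1, the widespread form of subunit 4, had 241, 517 and 378 CPM in the knockout libraries, against 414, 356 and 497 CPM in the control libraries. Cox5a had 161, 274 and 212 CPM in the knockout libraries, against 269, 225 and 249.7 CPM in the control libraries. Both genes thus had replicate 1 under and replicate 2 over every control library, with log2 fold changes of -0.16 ± 0.29 and -0.20 ± 0.22 (SE).

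Cox7a1, the form of subunit 7a typical of heart and skeletal muscle, had the lowest value of the complex, with 2.82, 5.76 and 4.55 CPM in the knockout libraries, against 7.34, 7.22 and 6.92 CPM in the control libraries. Its groups did not overlap, and its log2 fold change was -0.71 ± 0.31 (SE; edgeR, adjusted p = 0.323). Per length, Cox7a1 stood at 8.76%, 9.63% and 11.1% of the FPKM of Cox7a2, the widespread form, in the knockout libraries, against 14.3%, 18.6% and 16.6% in the control libraries. Muscle markers were also lower in the knockout group. The 8 smooth muscle markers summed to 3683, 1703 and 2586 CPM in the knockout libraries, against 8187 to 11761 CPM in the control libraries, and 4 of the 8 (Actg2, Des, Lmod1 and Myh11) were past the threshold, all lower in the knockout, with none at 0 in any library. Within the knockout, however, the smooth muscle sum was highest in replicate 1 and lowest in replicate 2, the reverse of Cox7a1. Of 8 markers of skeletal or cardiac muscle, 6 had too few reads to test, with Myh4 at 0 in all libraries and Myh7 at 1 read over all libraries. The list summed to 7.47, 16.1 and 12.8 CPM in the knockout libraries, against 34.8 to 43.8 CPM in the control libraries, a difference carried by Ckm, the muscle creatine kinase. Ckm fell, with 4.52, 5.10 and 4.86 CPM in the knockout libraries, against 37.7, 27.5 and 24.5 CPM in the control libraries (edgeR, adjusted p = 0.00718). Acta1, the other marker tested, overlapped between the groups, with 13, 145 and 109 reads in the knockout libraries, against 81, 174 and 154 reads in the control libraries. Their part in the level of Cox7a1 was not tested.

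Cox6b2, known as the testis form of subunit 6b, had 9.96, 2.55 and 3.86 CPM in the knockout libraries, against 1.60, 1.68 and 2.49 CPM in the control libraries. The groups did not overlap, but replicate 2 lay just above the highest control, and the log2 fold change of 1.50 ± 0.55 (SE) did not pass the threshold (edgeR's quasi-likelihood test, adjusted p = 0.252). Beside the widespread form Cox6b1, Cox6b2 had 1.32%, 0.174% and 0.352% of its FPKM in the knockout libraries, against 0.123%, 0.144% and 0.205% in the control libraries. Ndufa4l2, a paralogue of Ndufa4 induced under low oxygen in other settings, had 3.54, 1.17 and 2.68 CPM in the knockout libraries, against 1.05, 1.27 and 0.911 CPM in the control libraries. Knockout replicates 1 and 3 were high and replicate 2 lay within the controls, with a log2 fold change of 1.19 ± 0.47 (SE; edgeR, adjusted p = 0.284), and adjusted p = 0.0486 without replicate 2. Ndufa4l2 had 15.7%, 3.16% and 9.01% of the FPKM of Ndufa4 in the knockout libraries, against 3.34%, 5.62% and 3.43% in the control libraries. Cox4i2 and Cox8b stayed under 1% of the FPKM of Cox4i1 and Cox8a in every library. Cox7a2l, which helps to join complexes III and IV into supercomplexes, had 58.6, 88.9 and 72.7 CPM in the knockout libraries, against 96.1, 81.2 and 118 CPM in the control libraries, and its groups overlapped.

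ATP synthase had 15 nuclear subunits tested, 11 with negative log2 fold changes, and a median of -0.13. Among them 0 were past the threshold by edgeR or DESeq2 or had an unadjusted p under 0.05. Atp5b, the catalytic beta subunit, had 721, 1524 and 1084 CPM in the knockout libraries, against 1330.0, 1395 and 1275 CPM in the control libraries, and at -0.26 ± 0.29 (SE) had the lowest log2 fold change of the subunits. Atp5a1, the alpha subunit, had 626, 1145 and 839.6 CPM in the knockout libraries, against 1074, 916 and 932 CPM in the control libraries. Both showed the same low replicate 1 and high replicate 2. The highest value was that of Atp5l, a membrane subunit, at 0.31 ± 0.24 (SE), with 5.70, 6.34 and 7.47 CPM in the knockout libraries, against 4.94, 4.62 and 6.13 CPM in the control libraries, and its reads are shared with copies. Of the 3 genes for the c subunit of the rotor, which encode the same mature protein, Atp5g3 had the highest FPKM; Atp5g1 had 2.95%, 4.66% and 4.08% of it in the knockout libraries, against 4.34%, 3.87% and 3.93% in the control libraries. Atp5sl, which shares its name with the enzyme but is known to take part in building complex I, was lower than any ATP synthase subunit at -0.35 ± 0.24 (SE).

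Without knockout replicate 1, the medians of the nuclear subunits were 0.10, -0.08, 0.03, 0.06 and 0.07 for complexes I to V, so that those of complexes I, III, IV and V changed sign. Leaving out replicate 2 gave -0.23, -0.63, -0.37, -0.41 and -0.32.

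The 13 mitochondrially encoded subunits took 13.6%, 12.9% and 13.5% of all counts in the knockout libraries, against 12.97%, 13.1% and 15.0% in the control libraries, and the 83 nuclear subunits 0.805%, 1.24% and 1.04% in the knockout libraries, against 1.13%, 1.06% and 1.10% in the control libraries. The mitochondrial subunits summed to 122865, 137000.4 and 130142 CPM in knockout replicates 1, 2 and 3, against 133026 to 153285 CPM in the control libraries. In CPM the order of the knockout libraries was thus that of the nuclear subunits, in a narrower span. In share of all counts the order was reversed, with replicate 1 highest and replicate 2 lowest. Summed FPKM had that reversed order too, at 150568, 144320 and 149178 in knockout replicates 1, 2 and 3. Median log2 ratios of FPKM to the control mean were 0.03, -0.03 and 0.06 for the 13 genes in these libraries. Over all genes tested they were 0.17, -0.05 and 0.08. Relative to all genes, replicate 1 was thus lowest and replicate 2 highest in FPKM as well. In CPM, replicate 1 was the lowest knockout library for all 6 mitochondrial genes of complexes III, IV and V but for only 1 of the 7 of complex I. The median log2 fold change of the 13 genes was -0.03 (5 positive, 8 negative), and 0.04 with limma on log2(FPKM + 1), so its sign depends on the scaling. The median over all genes tested was 0.01 and 0.05 in these fits, above that of the 13 genes in both. By edgeR 0 of the 13 were past the threshold, against 1.76% of all genes tested. At an unadjusted p under 0.05 there were 2 (mt-Nd6 and mt-Nd3), against 16% of all genes tested. These 2 were also the calls of DESeq2, against 9.19% of all genes.

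Per length, mt-Co1, the catalytic subunit of complex IV, was the most abundant gene of the chain, at 32916 ± 1010 FPKM in the knockout and 37423 ± 4561 FPKM in the control (SD, n = 3 each). The lowest mitochondrial gene was mt-Nd6, at 45.7 ± 6.2 FPKM in the knockout and 68.6 ± 5.5 FPKM in the control, although the next, mt-Nd3, had 2176 ± 249 FPKM in the knockout and 2679 ± 94.9 FPKM in the control. The most abundant nuclear subunit was Cox8a, at 558 ± 112.5 FPKM in the knockout and 535 ± 33.1 FPKM in the control. All mitochondrial genes but mt-Nd6 thus stood above every nuclear subunit.

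mt-Nd6, the only protein gene on the light strand of mitochondrial DNA (MT:13552-14070, GRCm38), had 18.1, 27.2 and 24.6 CPM in the knockout libraries, against 37.2, 38.9 and 33.5 CPM in the control libraries. All knockout libraries lay under all controls, replicate 1 the furthest. The log2 fold change was -0.65 ± 0.19 (SE), not past the threshold by edgeR's quasi-likelihood test (adjusted p = 0.158); it passed by DESeq2 (adjusted p = 0.0322) and without knockout replicate 2 (adjusted p = 0.0483). As a share of the reads of the 13 genes, mt-Nd6 had 0.0147%, 0.0198% and 0.0189% in the knockout libraries, against 0.0276%, 0.0293% and 0.0218% in the control libraries, so the groups did not overlap within the mitochondrial reads either. The gene overlaps mt-Nd5 (MT:11742-13565) on the other strand, and the labels do not say whether counting used the strand, so reads of these neighbours may not be separable.

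mt-Nd3, a small membrane subunit of complex I, had 775, 735 and 697 CPM in the knockout libraries, against 956, 985 and 928 CPM in the control libraries, with groups that did not overlap. Its log2 fold change was -0.38 ± 0.15 (SE; edgeR, adjusted p = 0.285), and it passed with DESeq2 (adjusted p = 0.00533). mt-Nd2 and mt-Nd4, also membrane subunits of complex I, had groups that did not overlap in the other direction. mt-Nd4 had 9353, 9308 and 9427 CPM in the knockout libraries, against 8081, 7927 and 8549 CPM in the control libraries. mt-Nd2 had 4149, 3727 and 3979 CPM in the knockout libraries, against 3559, 3504 and 3475 CPM in the control libraries. Their log2 fold changes were small, 0.19 ± 0.24 and 0.17 ± 0.20 (SE), with adjusted p of 0.757 and 0.744 by edgeR's quasi-likelihood test. mt-Co1 had 44407, 54692 and 50085 CPM in the knockout libraries, against 55443, 54977 and 67527 CPM in the control libraries; its groups did not overlap, although knockout replicate 2 was close to control replicate 2. The other 8 mitochondrial genes (mt-Nd1, mt-Nd4l, mt-Nd5, mt-Cytb, mt-Co2, mt-Co3, mt-Atp6 and mt-Atp8) overlapped between the groups, with log2 fold changes from -0.20 (mt-Atp8) to 0.10 (mt-Nd1).

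Several of these genes have copies of their sequence in nuclear DNA. The copies in the table took 1.36%, 1.25% and 1.38% of all counts in the knockout libraries, against 1.21%, 0.95% and 1.26% in the control libraries. Summing mt-Nd3 with its copies gave -0.33 on the log2 scale (edgeR, adjusted p = 0.371). With its copies mt-Co1 had 46789.6, 57374 and 52808 CPM in the knockout libraries, against 58062, 57093 and 70529 CPM in the control libraries, so that its groups then overlapped.

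**Figure D4:**
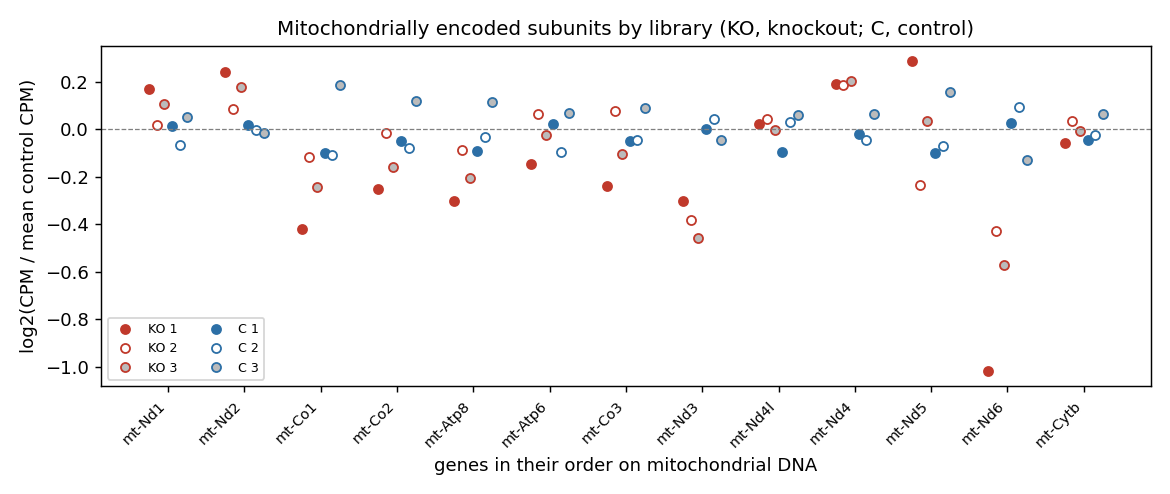
Log2 ratio of CPM to the mean control CPM (vertical axis) of the 13 mitochondrially encoded subunit genes, placed in their order on mitochondrial DNA, in each knockout (KO) and control (C) library. mt-Nd6 and mt-Nd3 are lower and mt-Nd2 and mt-Nd4 higher in all knockout libraries than in any control library.

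Genes that build, regulate or feed the chain were read in lists beside it. Of the 7 nuclear regulators, all with negative log2 fold changes (median -0.18), Ppargc1a fell. It encodes PGC-1alpha, a coactivator that promotes the transcription of nuclear genes for mitochondrial proteins. It had 25.6, 23.3 and 25.7 CPM in the knockout libraries, against 58.1, 42.6 and 62.7 CPM in the control libraries. The knockout libraries lay close together, and far under the controls, so their level did not follow the order of the nuclear subunits over those libraries. The means were 24.9 ± 1.40 CPM in the knockout and 54.5 ± 10.5 CPM in the control (SD, n = 3 each). On the log2 scale the fold change was -1.13 ± 0.18 (SE; edgeR, adjusted p = 0.0386). This call was lost without knockout replicate 1 (adjusted p = 0.0506) or 3 (0.199), without control replicate 1 (0.175), 2 (0.0761) or 3 (0.139), and with limma on log2(FPKM + 1) (0.0763) or log2(FPKM + 0.1) (0.0714). Smooth muscle markers and Ckm were lower in all knockout libraries too. The 4 tested adipocyte markers all had negative log2 fold changes (median -2.30), with 0 past the threshold by edgeR and 2 DESeq2 calls. Their list summed to 154, 34.3 and 92.7 CPM in the knockout libraries, against 182, 166 and 63.4 CPM in the control libraries. The part of muscle and fat cells in the level of Ppargc1a was not tested. Esrra and Nrf1, transcription factors of the same programme, had log2 fold changes of -0.22 ± 0.23 and -0.18 ± 0.19 (SE).

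In the other lists, edgeR called 0 genes. Of 17 genes of the tricarboxylic acid cycle and of pyruvate dehydrogenase, which feeds it, 15 had negative log2 fold changes (median -0.24), 1 had an unadjusted p under 0.05, and 0 were DESeq2 calls. That gene was Cs, citrate synthase, with 448, 466 and 458 CPM in the knockout libraries, against 783, 641 and 519 CPM in the control libraries, and its groups did not overlap. Its log2 fold change was -0.50 ± 0.19 (SE; edgeR, adjusted p = 0.265). Of 41 assembly factors beyond the Ndufaf genes, 30 were negative (median -0.12) and 1 was a DESeq2 call (9.19% of all genes). An unadjusted p under 0.05 was found for 3 (16% of all genes tested), Foxred1 and Acad9, which were lower, and Lyrm7, which was higher. Lyrm7 had 11, 44 and 59 reads in the knockout libraries, against 16, 13 and 14 in the control libraries. Its log2 fold change was 1.55 ± 0.61 (SE), and its groups overlapped. Foxred1, needed for the building of complex I, had 20.5, 20.9 and 20.7 CPM in the knockout libraries, against 27.7, 29.2 and 30.7 CPM in the control libraries, with a log2 fold change of -0.49 ± 0.13 (SE; edgeR, adjusted p = 0.131). The 7 carriers of electrons and of ADP and ATP that were tested had a median of -0.14, 6 of them negative, with 1 unadjusted p under 0.05 and 1 DESeq2 call. The lowest was Vdac3, a pore of the outer membrane, with 77.6, 145 and 109.0 CPM in the knockout libraries, against 185, 179 and 212 CPM in the control libraries.

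Genes of coenzyme Q synthesis numbered 11, 7 of them negative (median -0.07), with 1 unadjusted p under 0.05 and 1 DESeq2 call. The lowest was Coq10b, which binds coenzyme Q, with 61.7, 53.5 and 57.9 CPM in the knockout libraries, against 89.7, 93.3 and 73.0 CPM in the control libraries. The 14 genes that keep and transcribe mitochondrial DNA had a median of -0.08 (6 positive, 8 negative), with 0 at an unadjusted p under 0.05 and 0 called by DESeq2. The 77 genes of the mitochondrial ribosome, which translates the 13 mitochondrial messages, had a median of -0.04 (32 positive, 45 negative), with 1 unadjusted p under 0.05 (Mrpl48, log2 fold change -0.38 ± 0.13, SE) and 0 DESeq2 calls. The 3 tested uncoupling proteins had 0 at an unadjusted p under 0.05 and 0 DESeq2 calls. The ribosome genes showed the order of the knockout libraries in a smaller span than the respiratory chain, with medians of -0.21, 0.18 and -0.03 as log2 ratio to the control mean in knockout replicates 1, 2 and 3.

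**Figure D5:**
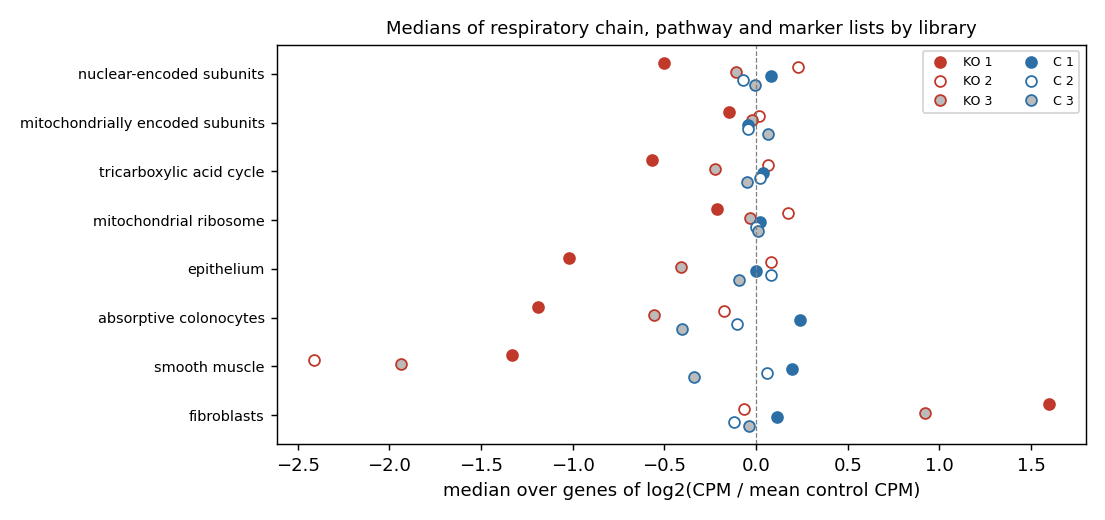
Median over genes of the log2 ratio of CPM to the mean control CPM (horizontal axis) in each knockout (KO) and control (C) library, for subunits of both genomes, the tricarboxylic acid cycle, the mitochondrial ribosome and markers of 4 cell types. Knockout replicate 1 is lowest for the nuclear subunits (-0.50) and for epithelial markers (-1.02) and highest for fibroblast markers (1.60), while smooth muscle markers are low in all knockout libraries.

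Nuclear respiratory genes are known to be driven by promoters that bind NRF1, YY1 and ETS factors such as GABP. RefSeq promoters (GRCm38.p6, 250 bases before to 50 after the start) were found for 67 of the 83 nuclear subunits and searched on both strands. The letters GCGCATGCG, the core bound by NRF1, were in 8 of the 67 (11.9%), against 1.81% of all 27025 promoters. AAGATGGCG, a YY1 core, was in 6 (8.96%), against 1.49%, and CCGGAAGT, an ETS core, in 5 (7.46%), against 4% of all promoters. The YY1 letters end in GCG, with which the NRF1 letters begin, so matches of these motifs may overlap. A match describes the letters only, and no binding was measured. As examples, the NRF1 letters before Cox6a1 (chr5:115349087-115349145, minus strand) and the ETS letters before Uqcrh (chr4:116075071-116075106, minus strand, read as their reverse complement) are shown in capitals.
Cox6a1: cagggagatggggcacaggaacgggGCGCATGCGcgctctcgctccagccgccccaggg
Uqcrh: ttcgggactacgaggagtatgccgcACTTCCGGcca
Both genes followed the low replicate 1 of the nuclear subunits. Cox6a1 had 251, 452 and 356 CPM in the knockout libraries, against 422, 357 and 358 CPM in the control libraries, and was above the controls in replicate 2. Uqcrh had 133, 208 and 149 CPM in the knockout libraries, against 183, 179.5 and 189 CPM in the control libraries, with the same high replicate 2.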

How the data were processed

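Transcripts of colon tissue were sequenced in 6 libraries, 3 from knockout and 3 from control mice, grouped by the tissue label of each sample. Per the file headers, the table holds for each gene the count and the FPKM of each library. The deposited counts are raw whole numbers. The FPKM values were scaled by the authors to gene length and library total. Tools listed in the submitters' processing notes, with no role, are StringTie 1.3.0, HISAT2 2.0.4 and edgeR, beside the builds GRCh38 and mm8. All 105 respiratory chain genes overlapped their locus in GENCODE M21 (GRCm38), 76 with the same start and end, so coordinates are given on GRCm38. No source used here states the strand setting or the handling of reads matching more than 1 gene.

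The counts were tested with edgeR 4.0.16 in R 4.3.3: TMM scaling, its own filter on low counts, and the two-sided quasi-likelihood test over all 15819 genes passing it, adjusted after Benjamini and Hochberg at a threshold of 0.05. CPM values are TMM-scaled counts, and standard errors of log2 fold changes come from the test statistic. Copies were sought among GENCODE M21 transcripts with blastn 2.17.0. Alternatives were RLE factors, DESeq2 1.42.0, no filter or at least 10 counts in every library, limma 3.58.1 on log2(FPKM + 1) and log2(FPKM + 0.1), mitochondrial genes left out of the library totals, a fit with a replicate block, and fits without each library. Summing copies was chosen after seeing the data. Exact permutation of 3 against 3 libraries reaches p = 0.1 at best and was not used. The respiratory chain genes and the other lists were chosen with earlier results of these data known. Named genes were those past the threshold, the 13 mitochondrial genes, 2 major subunits per complex, the extremes of each complex, the forms used in particular tissues, and up to 3 genes with the smallest p of each pathway list; the genes with groups that did not overlap, and the copies, were added after their values were seen.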

Additional observations from a re-analysis of the deposited data

How the results depend on the processing

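Ndufs5 kept its call with RLE factors, either filter on low counts, mitochondrial genes out of the library totals, DESeq2 and limma at both pseudocounts. The count of respiratory chain genes past the threshold was 1, and 4 with DESeq2, 0 with the replicate block (3 at an unadjusted p under 0.05), 0 with copies summed (4 at an unadjusted p under 0.05) and 0 to 4 when each library was left out in turn. With copies summed, the log2 fold change of Ndufs5 was -0.36, opposite in sign, because the reads of BC002163 then count with it. The number of all genes past the threshold was 278, and 1453 with DESeq2, 153 with at least 10 counts in every library and 9 with the replicate block. It was 15 to 1825 when each library was left out: 320, 1825 and 15 without knockout replicate 1, 2 and 3, and 31, 20 and 29 without control replicate 1, 2 and 3. The cause of these changes was not tested. The labels do not say whether the replicate numbers pair the samples. Same-numbered deviations from the group means correlated across genes at 0.054, -0.172 and 0.003, and differently numbered ones at -0.202 to 0.196. With 3 libraries in each group, these values cannot show whether the samples were paired. Results with the replicate block are given only here. With it, the adjusted p of Ppargc1a was 0.121 (edgeR), no longer past the threshold. The median of the nuclear subunits was -0.15 to 0.07 and that of the mitochondrial subunits -0.09 to 0.04 over all settings except, for the nuclear subunits, leaving out knockout replicate 2 (-0.28). Depth limits genes with few reads, such as Cox7a1, Cox6b2 and Ndufa4l2, more than the abundant subunits. Reads assigned to near-identical copies limit Ndufs5, Cox7c, Atp5l, Atp5h and Cox5b at any depth. The same holds for mitochondrial genes such as mt-Atp6, mt-Co2, mt-Co3, mt-Nd3 and mt-Nd4l. Copies may also limit Atp5g2 and Ndufb4, but Gm10175, a copy of Atp5g2, had 0 reads in all libraries, and no copy of Ndufb4 was counted.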
